A study of Danio rerio with 10 samples.

Results

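The genes described here are those of the ubiquitin-proteasome system in whole zebrafish embryos, taken from the deposited count table by their symbols: the proteasome genes (symbols starting psma to psmg and a digit), the conjugating enzyme genes (ube2), the activating enzyme genes (uba and a digit) and vcp. The rule found 94 of the 14650 genes of the table, of which 52 were psm, 36 were ube2 and 5 were uba symbols, besides vcp. Of these, 89 passed the filter on low counts and were tested. psmc3ip, a cofactor of meiotic recombination, is a member by spelling alone. Its values are given apart, but it is included in the counts of members. Embryos at 17 to 18 somites, kept at 28 °C, were sampled in 2 groups of 5 biological replicates, with 1 library each: the ABTU strain as wild type, and fish mutant for tpcn2, labelled TPC2 mutant, whose allele and strain the labels do not give. The labels do not say how many embryos made up a sample, whether replicates were separate clutches, or whether the groups were siblings, so genotype, strain and clutch cannot be told apart below.

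The proteasome degrades proteins that carry chains of ubiquitin. A ubiquitin-activating enzyme (E1) charges a conjugating enzyme (E2), which passes ubiquitin to a substrate with the help of a ligase (E3). The proteasome's 20S core particle is a barrel of stacked rings, the alpha subunits forming the gate and the beta subunits holding the proteolytic sites, and its 19S cap binds ubiquitin chains, removes them and unfolds the substrate with a ring of ATPases. Vcp, also called p97, is a separate ATPase that pulls ubiquitinated proteins out of membranes and complexes before they are degraded.

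Total counts per library lay between 17890367 and 22498643. The targeted gene tpcn2, which encodes a cation channel of lysosomes, was lower in the libraries labelled mutant, at 58 ± 14 CPM in wild type against 9.28 ± 1.56 CPM in the mutant (SD, n = 5; edgeR adjusted p = 3.19e-08; exact two-sided permutation p = 0.00794). Markers of the main tissues were present in both groups: krt4 (periderm), myod1 (somite muscle), sox2 (neural tissue) and gata1a (blood) were each at 11.2 CPM or more in every library. Wild-type replicate 1 stood apart from the other wild-type libraries on the second principal component, with a score of 33.3 against -17 to -0.71. Among all genes tested, 42.2% were called, 21.6% as lower and 20.6% as higher in the mutant (edgeR's quasi-likelihood test, Benjamini-Hochberg adjusted p under 0.05 over 11871 genes), and the median log2 fold change of all tested genes was -0.0011.

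The genes of the proteasome itself were lower in the mutant almost throughout. Of the 35 genes of 20S and 19S subunits, 31 fell, 0 rose and 4 did not pass, and the log2 fold change was below 0 for 35 of 35, where 21.6% of all tested genes were called lower. The change was small and alike among the subunits, with a median log2 fold change of -0.30. psma6l passed the filter through its wild-type libraries alone. Without it 30 of 34 fell, and the SD of the log2 fold changes among the 34 genes was 0.11, against 0.32 among the 2100 tested genes with a mean of at least 100 CPM (counts scaled to library size and composition). 33 of the subunit genes reached that mean, 29 of them fell, and of all genes that reached it 25.3% were called lower. The members as a whole had 52 lower, 4 higher (psmc3ip among these) and 33 that did not pass. With 30% lower (12 of 40) and 3 higher, the E1 and E2 enzyme genes had a share closer to that of all tested genes than the subunits did, and this difference between classes was not tested.

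**Figure D1:**
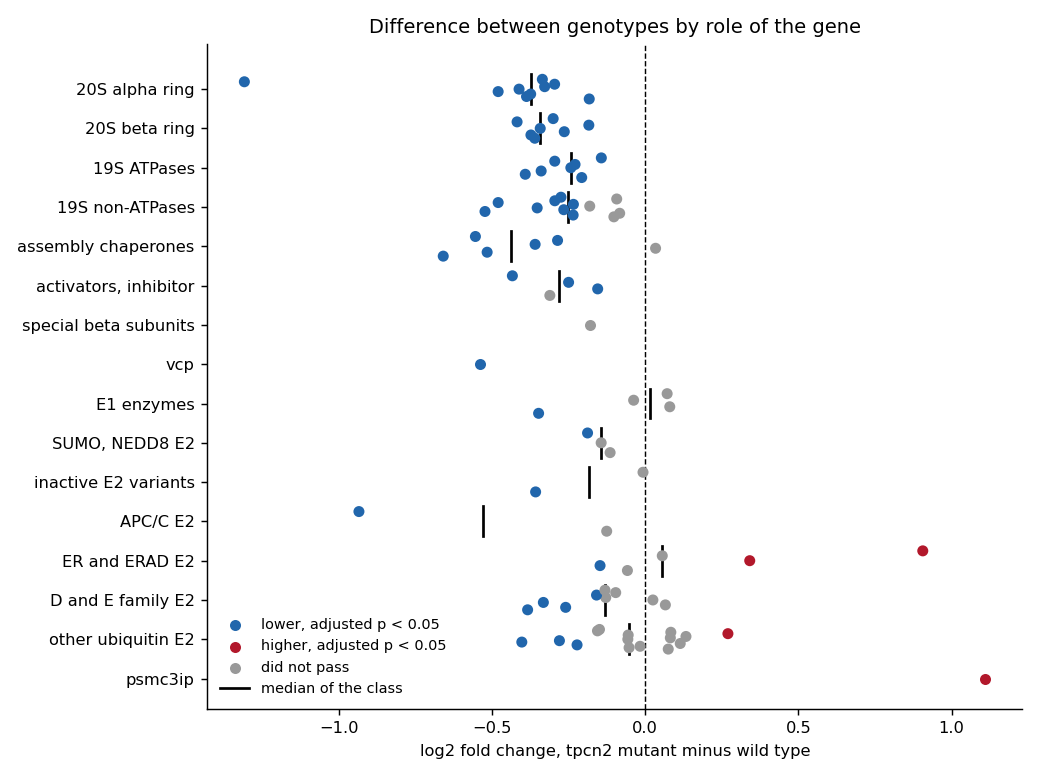
Log2 fold changes (x axis, mutant minus wild type) of tested members, 1 point a gene, in rows by role, coloured by the edgeR call, with a bar at the median of each class. The 4 subunit classes at the top lie wholly below 0, while the E2 genes, over their classes, lie on both sides of it.

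The libraries of each genotype were alike in this respect. Relative to the wild-type mean of each subunit gene, the median over the 35 genes was between -0.043 and 0.054 on the log2 scale in the wild-type libraries and between -0.32 and -0.28 in the mutant libraries. Every mutant library had 35 of the 35 genes below the wild-type mean. Wild-type replicate 1 held the highest wild-type value for 14 of the 35 genes and the lowest for 0, and without it the same 31 genes were called lower, with a median of -0.28. For 31 of the subunit genes all mutant libraries lay below all wild-type libraries, which was so for 15% of all tested genes. Without psma6l, which passed the filter through wild type alone, it was so for 30 of 34. In whole embryos fewer cells that express a gene and less RNA of it per cell cannot be told apart. Of 8 markers of embryonic tissues, 3 were called higher and 1 lower, where all tested genes had 20.6% higher and 21.6% lower. The hatching gland gene ctslb (0.60), sox2 (0.45) and the tailbud and notochord gene ta (0.28) were higher on the log2 scale and the yolk syncytial gene apoa2 (-0.79) was lower. The 8 summed to 30361 to 35655 CPM in wild type and 30440.3 to 34083 CPM in the mutant. Most of these sums was krt4, at 28865 ± 2320 CPM in wild type against 28882 ± 1312 CPM in the mutant, so they say little of the other markers. The calls of sox2 (without wild-type replicate 1, 3, 4 or 5 or mutant replicate 1, 2, 4 or 5, without scaling or with DESeq2) and ta (without wild-type replicate 2, 3 or 4 or mutant replicate 1, 2, 4 or 5, or without scaling) were lost at an adjusted p of 0.0509 to 0.106. The part of these markers in the change of the subunit genes was not tested.

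**Figure D2:**
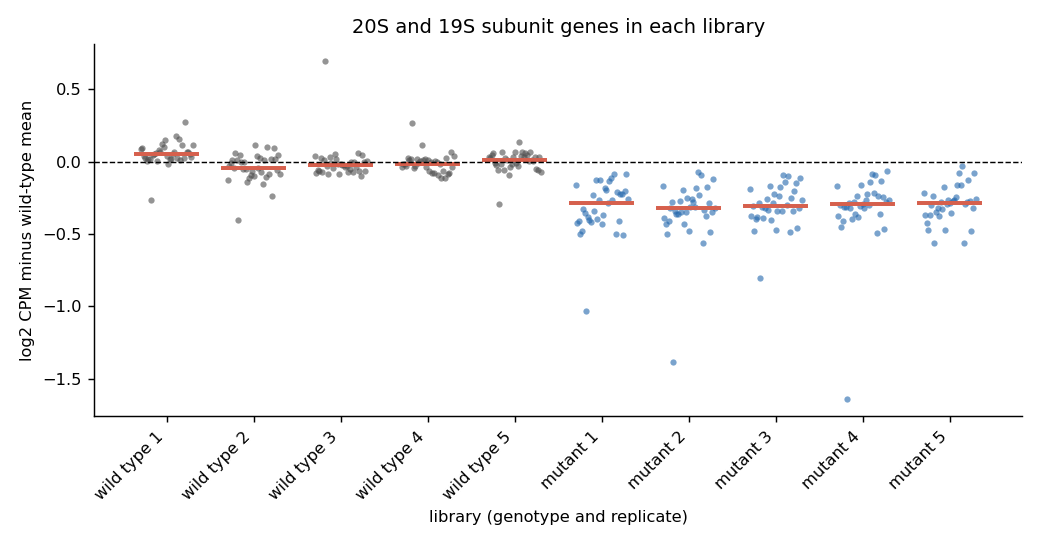
Log2 CPM minus the wild-type mean (y axis) of the 35 genes of 20S and 19S subunits in each of the 10 libraries (x axis), 1 point a gene, with a bar at the median. The medians lie between -0.043 and 0.054 in wild type and between -0.32 and -0.28 in the mutant, and the widest scatter is that of psma6l, which has few reads.

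In the outer rings of the 20S core, 8 of 8 alpha subunit genes fell, against 21.6% of all tested genes. This leaves out psma6l, which fell too but passed the filter through wild type alone. psma4 was at 299, 296, 281, 288 and 306 CPM in wild-type replicates 1 to 5 and at 208, 207, 211, 215 and 212 CPM in mutant replicates 1 to 5. The groups did not overlap, and the mutant libraries were the more even. Its log2 fold change was -0.48 ± 0.0241 (SE; edgeR adjusted p = 5.9e-07), or 0.717 times the wild-type level. psma5 was at 418, 405, 424, 425 and 413 CPM in wild type. In the mutant libraries it was at 299, 314, 317, 314 and 323 CPM (-0.41 ± 0.0224 as log2 fold change, edgeR adjusted p = 1.78e-06). Here too every mutant library lay below every wild-type library, and the wild-type libraries were within a narrow range. psma2 fell from 174 ± 7.72 CPM in wild type to 133 ± 2.03 CPM in the mutant, and psma3 (-0.37), psma8 (-0.34), psma6a (-0.33) and psma6b (-0.30) fell by like amounts on the log2 scale. psma1 changed least of these, from 427 ± 24.3 CPM in wild type to 376 ± 5.9 CPM in the mutant (-0.18 ± 0.0387). psma6l, which is spelled as a relative of psma6, had few reads, at 0.571 to 1.34 CPM in wild type and 0.184 to 0.502 CPM in the mutant (edgeR adjusted p = 0.0115).

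In the inner rings 7 of 7 beta subunit genes fell, against 21.6% of all tested genes. The 3 with proteolytic sites were psmb6, psmb7 and psmb5, known from yeast and mammals for cutting after acidic, basic and hydrophobic residues in turn. psmb6 was at 279.9, 238, 261, 259.8 and 250.4 CPM in wild type. The mutant values were 196, 190.5, 195, 197 and 186 CPM. All of the mutant values lay below all of the wild-type values (-0.42 ± 0.042 as log2 fold change, edgeR adjusted p = 1.07e-05). psmb7 fell from 634 ± 30.6 CPM in wild type to 514 ± 11.3 CPM in the mutant (-0.30 ± 0.0342, edgeR adjusted p = 7.32e-05) without overlap. psmb5 was at 256, 222, 253, 264 and 229 CPM in wild type. Mutant replicates 1 to 5 had 224, 214, 218, 207 and 216 CPM. It passed the test (-0.18 ± 0.0522, edgeR adjusted p = 0.0116), but its groups overlapped, since wild-type replicate 2 lay below mutant replicate 1. Among the beta subunits without a proteolytic site, psmb2 fell from 200.2 ± 7.32 CPM in wild type to 155 ± 3.97 CPM in the mutant and psmb4 from 382 ± 13.6 CPM in wild type to 301 ± 2.45 CPM in the mutant, and psmb1 (-0.36) and psmb3 (-0.26) fell as well.

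In the 19S cap, 7 of 7 genes of the ATPase ring fell (against 21.6% of all tested genes), by -0.14 to -0.39 on the log2 scale. psmc1b was at 167, 152, 161, 164 and 170.4 CPM in wild type. For the mutant libraries these values were 121, 116, 117, 133 and 133 CPM. The highest mutant library was below the lowest wild-type library (-0.39 ± 0.0514, edgeR adjusted p = 5.3e-05). psmc2 fell from 291 ± 13.5 CPM in wild type to 230.1 ± 3.61 CPM in the mutant (-0.34 ± 0.031), and psmc5 from 377 ± 14.3 CPM in wild type to 307 ± 7.73 CPM in the mutant (-0.30 ± 0.0295). psmc6 had the smallest change of the ring, at 445 ± 21 CPM in wild type against 403 ± 9.65 CPM in the mutant (edgeR adjusted p = 0.0151), and its groups did not overlap either.

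Of 12 genes of 19S subunits that are not ATPases, 8 fell, 0 rose and 4 did not pass. This is 66.7% lower, where all tested genes had 21.6% lower and 20.6% higher. psmd12, which encodes a scaffold subunit of the lid, was at 359, 382, 356, 329.9 and 357 CPM in wild type. In the mutant libraries it was at 251, 241, 255, 253 and 241 CPM. The groups did not overlap, and the log2 fold change of -0.52 ± 0.0378 was the largest among 20S and 19S subunits with a mean of at least 100 CPM (edgeR adjusted p = 8.32e-07). psmd4b, 1 of a pair of genes of the ubiquitin receptor Rpn10, was at 205, 198, 201, 185 and 189 CPM in wild type. The mutant values were 137, 139.7, 142, 141 and 140.1 CPM. The mutant libraries were nearly equal to each other and all lay below wild type (-0.48 ± 0.0285, edgeR adjusted p = 1.07e-06). psmd14, the enzyme that removes the ubiquitin chain before degradation, was at 237, 236, 243, 216 and 235 CPM in wild type. Mutant replicates 1 to 5 had 176, 180.0, 184, 182 and 193 CPM (-0.35 ± 0.0364, edgeR adjusted p = 2.82e-05), with wild-type replicate 4 below the other wild-type libraries and still above the mutant ones. The lid genes psmd6 (-0.30), psmd8 (-0.28), psmd13 (-0.27) and psmd11a (-0.24) and the receptor gene psmd4a (-0.23) fell less on the log2 scale.

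The 4 that did not pass had values below wild type by smaller amounts. psmd1, the large scaffold of the base, was at 675, 537, 575, 595 and 611 CPM in wild type. For the mutant libraries these values were 552, 567, 542, 562 and 565 CPM (edgeR adjusted p = 0.142). psmd3 was at 491, 344, 387, 413 and 407 CPM in wild type. In the mutant libraries it was at 347, 360.0, 352, 371 and 372 CPM (edgeR adjusted p = 0.0592). For both genes wild-type replicate 1 was the highest and wild-type replicate 2 the lowest library of its group, and wild-type replicate 2 lay below every mutant library. Without wild-type replicate 2 both genes passed. psmd7, the partner of psmd14 in the lid, was at 300.1 ± 10.3 CPM in wild type against 281 ± 4.12 CPM in the mutant (-0.093 ± 0.0242, edgeR adjusted p = 0.07). Its groups were apart by a narrow gap, with the highest mutant library at 286.1 CPM and the lowest wild-type library at 286.3 CPM. It passed with DESeq2 or without wild-type replicate 3. psmd11b was at 310.3 ± 22.8 CPM in wild type against 293 ± 5.62 CPM in the mutant (edgeR adjusted p = 0.198). psmd7 and psmd9 are among the 100 tested genes nearest to tpcn2 by gene order in the RefSeq annotation of the GRCz12tu assembly, and neither passed.

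**Figure D3:**
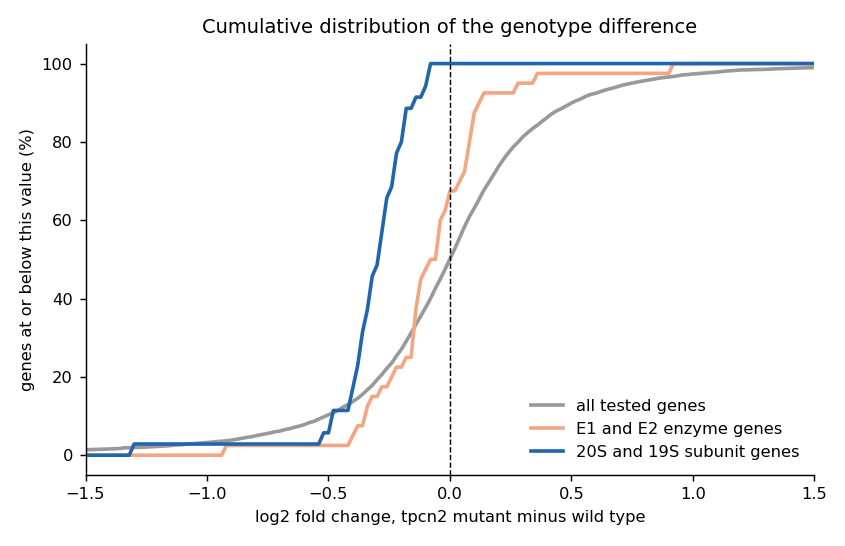
Percentage of genes (y axis) with a log2 fold change at or below the value on the x axis, for the 11871 tested genes, the 40 E1 and E2 enzyme genes and the 35 genes of 20S and 19S subunits. The curve of the subunits reaches 100% below 0, while 39.6% of all tested genes lie at or below the highest subunit value of -0.083.

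Genes of the chaperones that assemble the proteasome fell too, 5 of 6 against 21.6% of all tested genes, with a median of -0.44 on the log2 scale. psmd10, which encodes gankyrin, a chaperone of the 19S base, was at 36.7, 45.9, 42.8, 40.5 and 43.3 CPM in wild type. The mutant values were 25.7, 24.2, 28.1, 25.7 and 28.8 CPM. No mutant library reached the wild-type range (-0.66 ± 0.0716, edgeR adjusted p = 1.23e-05). psmd5, another base chaperone, fell from 33.6 ± 0.641 CPM in wild type to 23.5 ± 2.05 CPM in the mutant (-0.52 ± 0.0588), and psmg3, a chaperone of the alpha ring, from 33.1 ± 2.99 CPM in wild type to 22.5 ± 1.29 CPM in the mutant (-0.55 ± 0.0696). psmg1 (-0.36) and psmg2 (-0.29), which form a pair on the alpha ring, fell by less. psmd9, also a base chaperone, was at 55.3 ± 3.88 CPM in wild type against 56.6 ± 3.5 CPM in the mutant and missed the threshold (edgeR adjusted p = 0.702). pomp, a maturation factor of the beta rings that the symbol rule does not cover, was at 192, 174, 183, 188 and 183 CPM in wild type. Mutant replicates 1 to 5 had 120.3, 119.8, 134, 124 and 125 CPM. The gene fell without overlap (-0.56 ± 0.0384, edgeR adjusted p = 6.58e-07).

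Of the genes of alternative caps and of the inhibitor, 3 of 4 tested fell, against 21.6% of all tested genes. psme4b, of the PA200 activator, fell from 111 ± 4.77 CPM in wild type to 93.2 ± 6.83 CPM in the mutant (-0.25 ± 0.0545) and psmf1, the inhibitor PI31, from 11.8 ± 1.16 CPM in wild type to 8.71 ± 0.611 CPM in the mutant (-0.43 ± 0.075). psme3, the nuclear PA28 gamma subunit, was at 222, 259, 247, 238 and 255 CPM in wild type. For the mutant libraries these values were 230.4, 216, 229, 206 and 215 CPM. It passed (edgeR adjusted p = 0.0261) with groups that overlapped. Its call was lost when wild-type replicate 2 or 5 or mutant replicate 2, 4 or 5 was left out (adjusted p 0.0575 to 0.0707). psme1, of the PA28 cap known in mammals to be induced by interferon, was at 8.61 ± 2.61 CPM in wild type against 6.93 ± 1.01 CPM in the mutant and missed the threshold (edgeR adjusted p = 0.208), and its partner psme2 had 82 reads in all libraries together.

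The beta subunits of the immunoproteasome, which in mammals take the place of the constitutive ones in immune cells and after interferon, were close to absent. Over the 10 libraries psmb8a had 9 reads, psmb9a 65, psmb10 29 and psmb11b, related to the thymus subunit of mammals, 1, and none of these passed the filter. psmb12 was tested and was at 0.696 to 0.816 CPM in wild type and 0.507 to 1.06 CPM in the mutant (edgeR adjusted p = 0.635). The planned comparison of these subunits with psmb5, psmb6 and psmb7 could therefore be made for 0 of 3 pairs. Interferon response genes were low in both groups as well, 7 of them summing to 19.6 to 26 CPM in wild type and 20.7 to 25.7 CPM in the mutant. Most of these sums was stat1a, which was not called, at 15.9 ± 1.76 CPM in wild type against 18.3 ± 1.42 CPM in the mutant. They therefore say little of the other genes, such as b2m, at 3.38 ± 1.19 CPM in wild type against 0.851 ± 0.51 CPM in the mutant. Of 4 tested, 1 was called (b2m, lower, with overlapping groups), where 42.2% of all tested genes were called. The 4 had 2 log2 fold changes below 0 and 2 above. stat1b, which was not tested, was at 0 to 0.333 CPM in wild type and 0.446 to 1.1 CPM in the mutant. A set of 6 immune cell markers summed to 27.6 to 41.6 CPM in wild type and 16.2 to 20.2 CPM in the mutant. Of these, lcp1 was called lower and spi1b higher, where all tested genes had 21.6% lower and 20.6% higher. Most of the wild-type sum was lcp1, at 23.3 ± 6.4 CPM in wild type against 4.85 ± 1.02 CPM in the mutant. The other 4 of the 5 tested markers had log2 fold changes above 0. lyz did not pass the filter and was not tested. It was at 0.153 to 0.447 CPM in wild type and 0 to 0.0556 CPM in the mutant. No marker of either list was without reads in all libraries.

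vcp was at 1416, 1176, 1302, 1366 and 1332 CPM in wild type. In the mutant libraries it was at 908, 932, 939.7, 865 and 892 CPM. All mutant libraries lay below all wild-type libraries (-0.54 ± 0.0502, edgeR adjusted p = 1.68e-06), the mutant being at 0.688 times the wild-type level. The genes of the adaptor pair that brings ubiquitinated proteins to Vcp were lower too: ufd1l was at 70.7, 78.4, 67.8, 75.6 and 77.5 CPM in wild type. The mutant values were 51.6, 47.7, 50.1, 50 and 48.4 CPM (-0.58 ± 0.0449, edgeR adjusted p = 2.36e-06). Its partner nploc4 fell from 64.4 ± 3.78 CPM in wild type to 47.9 ± 3.74 CPM in the mutant (-0.43). The alternative adaptor nsfl1c (p47) fell from 357 ± 15.8 CPM in wild type to 286 ± 3.85 CPM in the mutant (-0.32 ± 0.0304). Of 25 tested genes of Vcp cofactors and of ER-associated degradation, 10 fell and 2 rose, 40% lower against 21.6% of all tested genes. Among the 10, aspscr1 lost its call without wild-type replicate 5 or mutant replicate 2 (edgeR adjusted p 0.0581 to 0.0626). So did ube4b without wild-type replicate 1 or 5 or mutant replicate 1, 2 or 3 (0.0701 to 0.104). derl3, a derlin of the ER membrane, fell furthest, from 14.9 ± 4.06 CPM in wild type to 1.42 ± 0.217 CPM in the mutant (-3.39 ± 0.196, edgeR adjusted p = 2.62e-08). sel1l (0.15), a subunit of an ER ligase, and ubac2 (0.77) rose on the log2 scale, sel1l with a call lost under the replicate block or without replicate 2, 3 or 4 of either group (adjusted p 0.0558 to 0.0948). The ER ligase gene syvn1 was at 102 ± 21.7 CPM in wild type against 102 ± 4.54 CPM in the mutant and missed the threshold (edgeR adjusted p = 0.989).

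**Figure D4:**
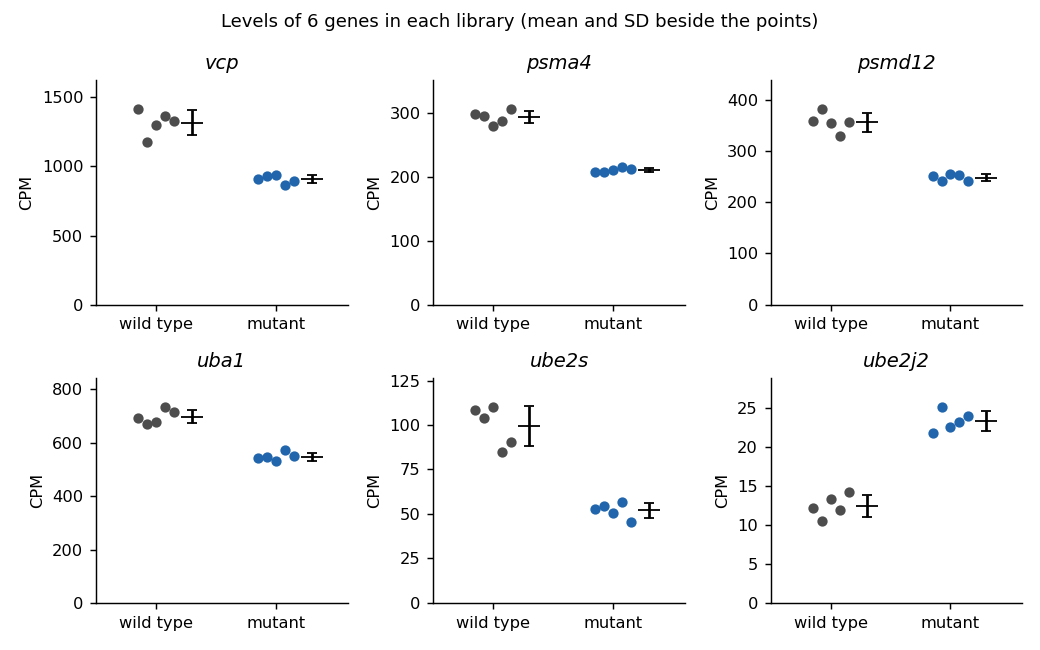
CPM (y axis, from 0) of vcp, psma4, psmd12, uba1, ube2s and ube2j2 in the 5 wild-type and 5 mutant libraries, 1 point a library, with the mean and SD beside them. The groups do not overlap in any of the 6 panels, and ube2j2 is the gene that is higher in the mutant.

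Of 4 genes of activating enzymes 1 passed (25% lower, against 21.6% of all tested genes), uba1, the main E1 of ubiquitin. It was at 694, 670.4, 678, 732 and 715 CPM in wild type. Mutant replicates 1 to 5 had 541, 548, 531, 571 and 551 CPM. The lowest wild-type library lay above the highest mutant one (-0.35 ± 0.0294, edgeR adjusted p = 1.35e-05). uba2, the catalytic subunit of the E1 of SUMO, was at 296 ± 10.5 CPM in wild type against 313 ± 11.8 CPM in the mutant (0.08 ± 0.0337, edgeR adjusted p = 0.148). uba3, of the E1 of NEDD8, was at 71.5 ± 4.45 CPM in wild type against 69.7 ± 3.8 CPM in the mutant (edgeR adjusted p = 0.633). The genes of the partner subunits of uba2 and uba3 passed, sae1 (of SUMO) at 242 ± 8.61 CPM in wild type against 217 ± 3.34 CPM in the mutant and nae1 (of NEDD8) at 57.3 ± 2.02 CPM in wild type against 46.7 ± 3.49 CPM in the mutant, both lower in the mutant. nae1 had 1 mutant library, replicate 1, above the others of its group. Of the genes that encode ubiquitin itself, ubb, ubc and rps27a did not pass: ubb was at 205 ± 12.5 CPM in wild type against 189 ± 12.3 CPM in the mutant (edgeR adjusted p = 0.0976), ubc at 894 ± 132 CPM in wild type against 942 ± 52.9 CPM in the mutant (adjusted p = 0.5) and rps27a at 706 ± 65.1 CPM in wild type against 694 ± 27.3 CPM in the mutant (adjusted p = 0.75). Of the precursors of ubiquitin-like proteins, nedd8 (-0.34) fell and sumo2b (0.20) rose on the log2 scale.

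Of 36 E2 genes, 11 fell, 3 rose and 22 did not pass, 30.6% being lower against 21.6% of all tested genes. The furthest apart were ube2s below and ube2j2 above wild type. ube2s, which extends ubiquitin chains on substrates of the anaphase-promoting complex in mitosis, was at 109, 104, 109.9, 84.9 and 90.7 CPM in wild type. For the mutant libraries these values were 52.9, 54.5, 50.7, 56.6 and 45.7 CPM. The mutant libraries were at about the same low level, and the wild-type libraries were more spread (-0.93 ± 0.091, edgeR adjusted p = 8.09e-07). ube2c, which starts those chains, was at 153, 155, 141, 135 and 148 CPM in wild type. In the mutant libraries it was at 143, 123, 129.6, 140.4 and 136 CPM. The groups overlapped and the gene missed the threshold (edgeR adjusted p = 0.0803). In the anaphase-promoting complex itself 6 of 15 genes fell and 0 rose (40% lower against 21.6% of all tested genes), among them anapc5 (-0.73), anapc7 (-0.72) and anapc13 (-0.50). The call of anapc15 (-0.20), also among the 6, was lost with no filter and with the replicate block. It was lost as well without any 1 library but mutant replicate 2 (edgeR adjusted p 0.0518 to 0.106). Of 8 proliferation markers, 1 rose (cdk1, 0.18), 1 fell (mcm5, -0.11) and 6 did not pass, where all tested genes had 20.6% higher and 21.6% lower. The call of mcm5 was lost with no filter, with the replicate block and without wild-type replicate 4 or 5 or any 1 mutant library. The 8 markers summed to 4437 to 4601 CPM in wild type and 4422 to 4754 CPM in the mutant. mki67 was at 779 ± 40.1 CPM in wild type against 769.9 ± 46.9 CPM in the mutant.

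ube2j2, an E2 anchored in the ER membrane, was at 12.2, 10.5, 13.4, 11.9 and 14.2 CPM in wild type. The mutant values were 21.8, 25.1, 22.5, 23.2 and 24 CPM. Every mutant library was above every wild-type one, at 1.87 times the wild-type mean (0.91 ± 0.082, edgeR adjusted p = 3.48e-06). ube2g2, which serves ER-associated degradation in yeast and mammals, was at 56.3, 45.1, 42.3, 42.7 and 45.1 CPM in wild type. Mutant replicates 1 to 5 had 57.1, 57, 59.7, 62 and 57.3 CPM. It rose (0.34 ± 0.0784, edgeR adjusted p = 0.00236), although wild-type replicate 1 stood above the rest of its group and just below the mutant values. The other ER-anchored E2 gene, ube2j1, was at 28.1 ± 2.97 CPM in wild type against 29.2 ± 1.52 CPM in the mutant and missed the threshold (edgeR adjusted p = 0.61). ube2r2, an E2 of cullin-RING ligases, rose from 13.3 ± 0.507 CPM in wild type to 16 ± 1.52 CPM in the mutant (0.27 ± 0.064, edgeR adjusted p = 0.0212); that call ended without mutant replicate 2 (0.0647) and with the replicate number as a block (0.0519).

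Of the D and E family E2 genes, which work with many ligases, 4 of 9 fell and 0 rose (44.4% lower, where all tested genes had 21.6% lower and 20.6% higher). ube2d1a fell from 46.1 ± 3.03 CPM in wild type to 35.3 ± 2.03 CPM in the mutant (-0.38 ± 0.0557), ube2d2l from 56.7 ± 5.36 CPM in wild type to 45 ± 1.39 CPM in the mutant (-0.33 ± 0.065) and ube2d1b from 154 ± 8.53 CPM in wild type to 129 ± 10.1 CPM in the mutant (-0.26 ± 0.0606). ube2d2 was at 419.6 ± 17.9 CPM in wild type against 439 ± 11.6 CPM in the mutant and ube2d3 at 91.9 ± 3.83 CPM in wild type against 93.5 ± 2.11 CPM in the mutant, and neither passed (edgeR adjusted p = 0.227 and 0.692). Members of this family are alike in sequence, so reads may be split among them. ube2l3a and ube2l3b, E2 genes of HECT-type and RBR-type ligases, both fell. ube2l3a was at 123, 129, 126, 130.3 and 124 CPM in wild type. For the mutant libraries these values were 95.3, 99.3, 96.4, 92.6 and 94.8 CPM. The groups did not overlap (-0.40 ± 0.0224, edgeR adjusted p = 5.19e-06), and for ube2l3b the log2 fold change was -0.28 ± 0.033.

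Of the partners of the E2 Ubc13, which lack a catalytic site, ube2v1 fell from 158 ± 3.24 CPM in wild type to 124 ± 4.3 CPM in the mutant (-0.36 ± 0.0262, edgeR adjusted p = 1.47e-05), while ube2v2 was at 368 ± 11.6 CPM in wild type against 366 ± 15.7 CPM in the mutant (adjusted p = 0.908). The Ubc13 genes themselves did not pass, ube2na being at 297 ± 15.3 CPM in wild type against 285 ± 9.17 CPM in the mutant (edgeR adjusted p = 0.337) and ube2nb at 199 ± 13.9 CPM in wild type against 210.5 ± 4.97 CPM in the mutant (adjusted p = 0.211). The SUMO E2 gene ube2ib fell from 301 ± 17.4 CPM in wild type to 264 ± 7.39 CPM in the mutant (-0.19 ± 0.0416), and ube2ia was at 117 ± 9.55 CPM in wild type against 106 ± 4.34 CPM in the mutant (edgeR adjusted p = 0.0613). ube2f, an E2 of NEDD8, was at 50.4 ± 4.24 CPM in wild type against 46.5 ± 2.03 CPM in the mutant (edgeR adjusted p = 0.179). ube2ka (-0.22) and ube2g1b (-0.15) fell by small amounts, the latter with a call lost when wild-type replicate 3 or mutant replicate 1, 3 or 5 was left out (adjusted p 0.0521 to 0.0677). The Rad6-type genes ube2a and ube2b, the Fanconi E2 gene ube2t, and ube2h, ube2q1, ube2q2, ube2w and ube2z did not pass, with log2 fold changes from -0.16 to 0.13. psmc3ip, the member that is no proteasome gene, rose from 10.8 ± 2.45 CPM in wild type to 23.4 ± 1.52 CPM in the mutant (1.11 ± 0.156, edgeR adjusted p = 1.59e-05).

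Pairs of genes whose symbols differ in a final a or b allowed a test of whether paralogs differed between genotypes by different amounts. Over 11 such pairs, of which ube2a and ube2b are separate genes in mammals too, none had a difference of log2 fold changes past the threshold (exact two-sided permutation test over libraries, adjusted over 11 pairs). There were 5 pairs at an unadjusted p under 0.05, with an adjusted p of 0.0524. The clearest was that of psmd4a and psmd4b: the log2 ratio of psmd4a to psmd4b was -0.55 in wild type and -0.30 in the mutant. These differ by 0.25 ± 0.0462 (SE, n = 5 a group) with libraries that did not overlap and the smallest exact permutation p that 5 against 5 libraries allow, 0.00794. After adjustment over 11 pairs, a single pair at that p cannot pass on its own. The lack of a pass therefore does not tell whether a pair differed. For psmc1a and psmc1b the difference was 0.19 ± 0.0605, for psmd11a and psmd11b -0.15 ± 0.0473, for ube2l3a and ube2l3b -0.12 ± 0.0327 and for ube2ka and ube2kb -0.33 ± 0.118. Without wild-type replicate 1 the psmd4, psmd11 and ube2l3 pairs passed (adjusted p = 0.0291, exact permutation test), and without mutant replicate 5 the psmd4, psmc1, ube2k and ube2l3 pairs did (0.0437). In each of these fits the pairs that passed share the same adjusted p, and none passed alone. The alpha subunit pair of psma6a and psma6b differed by -0.032 ± 0.0305. Reads of such pairs may be split between them in counting, which bears on each of these differences.

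**Figure D5:**
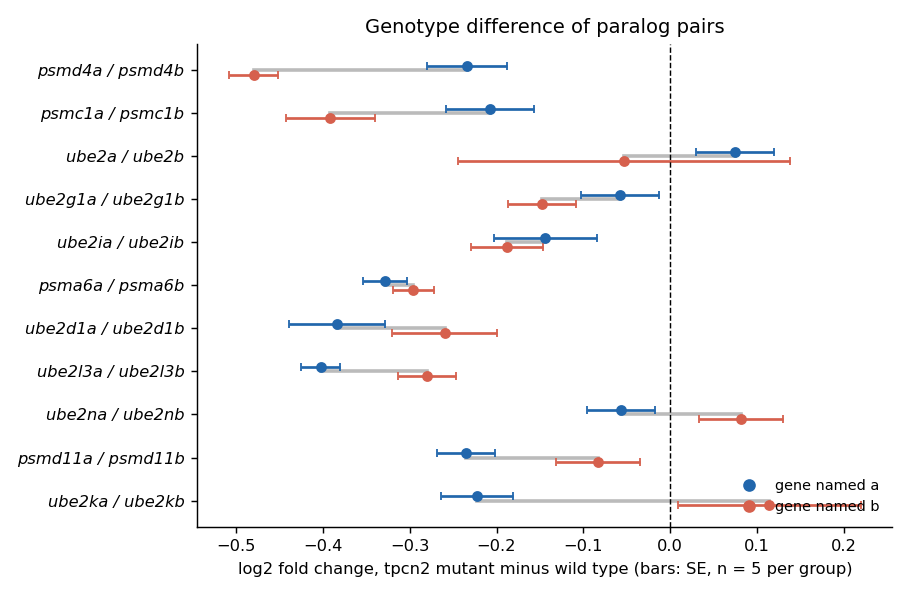
Log2 fold changes (x axis, mutant minus wild type) of both genes of the 11 pairs, 1 row a pair, with bars of 1 SE (n = 5 libraries a group). In the psmd4 pair the b gene lies at -0.48 and the a gene at -0.23, while the psma6 genes lie together.

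Further genes of the pathway, from lists named for their roles, moved in both directions. Of 11 further proteasome genes 4 fell and 1 rose, 36.4% lower against 21.6% of all tested genes, with a median log2 fold change of -0.13. uchl5, a deubiquitinase of the 19S cap, was at 224, 247, 239, 235 and 247 CPM in wild type. In the mutant libraries it was at 106, 116, 97.8, 106 and 80.3 CPM. The mutant was at 0.425 times the wild-type level, with no overlap (-1.23 ± 0.0944, edgeR adjusted p = 4.76e-08). usp14, the other deubiquitinase of the cap, fell from 218 ± 4.75 CPM in wild type to 172 ± 7.74 CPM in the mutant (-0.35), and shfm1 (Sem1), a small lid subunit, from 216 ± 2.91 CPM in wild type to 169 ± 4.25 CPM in the mutant (-0.35 ± 0.0184). adrm1, the ubiquitin receptor that holds uchl5 on the cap in mammals, was at 79.9 ± 4.26 CPM in wild type against 73.8 ± 1.74 CPM in the mutant and missed the threshold (edgeR adjusted p = 0.0798). zfand5a rose (0.21), a call that ended in 6 of the 10 fits without 1 library (wild-type replicate 2, 3 or 4, or mutant replicate 1, 3 or 4; adjusted p 0.0564 to 0.0946).

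Nfe2l1 is known in mammals as the transcription factor that raises proteasome gene expression when the proteasome is impaired. A list of 12 genes named for its pathway also held nfe2l2a, nfe2l2b, keap1a and keap1b, genes of the related factor Nfe2l2 and of Keap1. Of the 12, 3 fell and 2 rose, keap1a among the lower and nfe2l2b among the higher. The lower gene mafga reached the level of the filter in wild-type libraries alone, and without it 2 of 11 fell (18.2%), with a median log2 fold change of 0.041. These shares, taken over the whole list, were near those of all tested genes, 21.6% lower and 20.6% higher. They are not shares of Nfe2l1 and its own partners alone. nfe2l1b was at 23, 31.1, 31.2, 30.7 and 28 CPM in wild type. The mutant values were 30.5, 27.9, 27.5, 27.7 and 27.3 CPM. It missed the threshold (edgeR adjusted p = 0.795); mutant replicate 1 stood above its group. nfe2l1a was at 4.47, 8.18, 5.19, 2.45 and 6.25 CPM in wild type. Mutant replicates 1 to 5 had 2.06, 2.3, 3.11, 3.18 and 4.07 CPM. It was called lower (-0.86 ± 0.332, edgeR adjusted p = 0.0212) with overlapping groups, a call lost when wild-type replicate 2 or 5 or mutant replicate 1 or 2 was left out (0.0522 to 0.0629). Of the small Maf genes, partners of Nfe2l1, mafk rose from 3.79 ± 0.895 CPM in wild type to 7.2 ± 0.8 CPM in the mutant (0.92 ± 0.168) and mafga fell, being at 0.71 ± 0.102 CPM in wild type against 0.4 ± 0.051 CPM in the mutant, a call lost with no filter on low counts, DESeq2 or the replicate number as a block, and without wild-type replicate 2, 3 or 4 or mutant replicate 2 or 3 (adjusted p 0.0507 to 0.0809). ddi2 (the protease that activates Nfe2l1 in mammals) was at 252 ± 14 CPM in wild type against 259 ± 10.4 CPM in the mutant and ngly1 at 58.9 ± 2.68 CPM in wild type against 53.2 ± 5.5 CPM in the mutant, and neither passed. keap1a fell (-0.29, lost without wild-type replicate 5 at 0.0626 or mutant replicate 4 at 0.0559), and nfe2l2b rose (0.72, lost in 7 of the 10 fits without 1 library, without wild-type replicate 1, 3, 4 or 5 or mutant replicate 1, 2 or 5, at 0.0524 to 0.0917).

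Of 14 shuttle and deubiquitinase genes 4 fell and 3 rose, which is near the shares of all tested genes (28.6% lower against 21.6%, and 20.6% of all higher). The genes that rose were those of the Rad23 shuttles, which carry ubiquitinated proteins to the proteasome: rad23b was at 11, 9.32, 15.9, 10.5 and 9.47 CPM in wild type. For the mutant libraries these values were 23.2, 21.9, 23, 21.6 and 21 CPM. The groups did not overlap, wild-type replicate 3 being the highest of its group (0.98 ± 0.141, edgeR adjusted p = 3.48e-05). rad23aa rose too (0.33), a call lost with the replicate block or without wild-type replicate 3 or 4 or mutant replicate 1, 2 or 4 (adjusted p 0.0613 to 0.0905). rad23ab also rose (0.39), which was lost without wild-type replicate 2, 3 or 5 or mutant replicate 1, 4 or 5 (0.0508 to 0.0962). The deubiquitinase genes usp5 (-0.43 ± 0.0652), otub1a (-0.40 ± 0.0284) and otub1b (-0.69 ± 0.113) fell. stambpa (-0.34) fell too, a call lost without wild-type replicate 5 or mutant replicate 5 (edgeR adjusted p 0.0508 to 0.0557). In the core of the cullin-RING ligases 7 of 18 fell and 1 rose (38.9% lower against 21.6% of all tested genes), skp1 (-0.37), the elongin C gene tceb1b (-0.34) and the cullin exchange factor gene cand1 (-0.33) being lower and skp2 (0.32) higher. keap1a, counted in the Nfe2l1 list as well, is among the 7 that fell. Its groups overlapped, and its call was lost without wild-type replicate 5 or mutant replicate 4 (edgeR adjusted p 0.0559 to 0.0626). Of 7 cullin genes in this list, 6 did not pass, with log2 fold changes from -0.17 to 0.05. The other, cul5a, fell (-0.18, edgeR adjusted p = 0.0335) with overlapping groups. Its call was lost with the replicate block and without wild-type replicate 3, 4 or 5 or mutant replicate 2, 3, 4 or 5 (adjusted p 0.0502 to 0.0881). Of the 4 genes listed as E1 partners or E1-like, 3 fell, 75% lower against 21.6% of all tested genes. These were sae1, nae1 and ubl4a (zgc:56596 in the table, -0.50). The last is a ubiquitin-like chaperone subunit rather than an activating enzyme.

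In the authors' deposited table of their own comparison, 93 of the members were listed, 52 with an adjusted p under 0.05 and a lower level in the mutant and 4 with a higher one. These were the same 52 and 4 genes as in the counts given above, and the authors' deposited table gives log2 fold changes of -0.53 for vcp, -0.91 for ube2s and 0.88 for ube2j2.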

How the data were processed

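RNAzol was used to extract RNA of whole embryos, per the labels' protocols. Per the submitters' processing notes, cutadapt 3.4 (a read trimmer), STAR 2.7 (an aligner) and DESeq2 1.30.0 were named, as were the builds mm10 and danRer10, each with no role. Not given in the sources used here were the counter, its annotation, its strand setting and its treatment of reads shared by paralogs, so a gene's count may include antisense reads. The deposited count table gives, for 14650 gene symbols, unnormalized read counts and no coordinates. The authors' second deposited table holds, per the file headers, log2 fold changes with their errors, p-values, a test statistic (a score) and a mean of normalized counts (a signal).

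Counts were tested as deposited. Genes were kept by filterByExpr (11871), scaled with TMM and tested for genotype, with no other term, by edgeR 4.0.16's quasi-likelihood test (glmQLFTest, under R 4.3.3), and p-values were adjusted over all tested genes (threshold 0.05). CPM are TMM-scaled. Errors of log2 fold changes are standard errors of the difference of mean log2 CPM (prior count 2, n = 5 a group). Paralog pairs were compared by the exact permutation test of log2 CPM differences (252 splits; Python 3.11.15). The pipeline was tested on simulated counts, in which a far smaller share of genes changed than was called here. That test therefore says little of calls at such a share. Depth was 17890367 to 22498643 counts a library, where 3 counts are 0.133 to 0.168 CPM, for counting error only. p-values set the difference between the groups against the spread between these libraries. The labels do not say whether that spread includes separate clutches.

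The members, role classes and lists were chosen with earlier results of these data known. Named genes were tpcn2, vcp, psmb5, psmb6, psmb7 and the uba genes. To these were added up to 3 members a class and direction by smallest p, called members at least 0.5 away from 0 in log2 fold change and with a mean of at least 1 CPM, members of a/b pairs that passed, and up to 3 genes a pathway list and direction with nfe2l1a, nfe2l1b and pomp. Other genes are named to complete a class, or as partners or neighbours of these, after their values were seen. Values of some genes of these classes are not reported here. Of the genes in the 12 pathway and marker lists, 139 were matched to the table, 9 of them by another symbol through RefSeq's table (GRCz12tu, names and gene order only). Alternatives were RLE size factors, no scaling, DESeq2 1.42.0, limma-voom (limma 3.58.1), no filter, a mean of at least 1 CPM, the replicate number as a block, other prior counts (0.5 and 5) for pairs, and each library left out.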

Additional observations from a re-analysis of the deposited data

Results flagged for a closer look

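Among 148 groups of 5 libraries (74 named genes in both genotypes), 6 had 1 library whose distance from its nearest neighbour was large beside the range of its group, and chance gives about 1 in 20 groups. Among the members these were psmd14, with wild-type replicate 4 at 216 CPM against 235 to 243 CPM in the others, psmd5, with wild-type replicate 5 at 34.7 CPM against 33.2 to 33.4 CPM, and ube2g2, with wild-type replicate 1 at 56.3 CPM against 42.3 to 45.1 CPM. Among the pathway genes they were rad23b, with wild-type replicate 3 at 15.9 CPM against 9.32 to 11 CPM, nae1, with mutant replicate 1 at 52.8 CPM against 44 to 46.1 CPM, and nfe2l1b, with mutant replicate 1 at 30.5 CPM against 27.3 to 27.9 CPM. psmd14, psmd5, ube2g2, rad23b and nae1 were called without each library in turn as well, and nfe2l1b was not called with all libraries.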

How the results depend on the processing

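The count of lower members was 52 and lay between 51 and 53 under the 7 alternatives that kept all libraries, and the count of 20S and 19S subunit genes called lower, 31, between 30 and 32. The median log2 fold change of the subunits stayed between -0.31 and -0.28. Without 1 library the counts were 50 to 54 lower members, 3 to 4 higher members and 31 to 33 lower subunit genes, and the median of the members was -0.23 to -0.20. Small classes moved by 1 gene: the SUMO and NEDD8 E2 class had 2 lower genes with library size alone, and 1 to 2 without 1 library; ER-associated E2 genes had 0 to 1 lower, anaphase-promoting complex E2 genes 1 to 2 lower, and other ubiquitin E2 genes 0 to 1 higher. The paralog pairs that passed numbered 0 to 4 without 1 library. No named gene called with all libraries changed its direction, and 11 of 74 lost their call in at least 1 alternative, 3 of them members (psme3, ube2g1b and ube2r2); the cause was not tested.

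The labels do not say whether same-numbered libraries were paired. Deviations from the group mean correlated by -0.062 to 0.075 in same-numbered libraries, and 2 of 5 wild-type libraries correlated best with their own number. These correlations cannot tell whether such samples were collected or prepared together. With the replicate number as a block, 52 members were lower and 3 higher, and the other ubiquitin E2 class had 0 higher genes. For the pairs, sign flips within 5 numbers cannot go below p = 0.0625 (exact), so 0 could pass. Overlap of libraries was judged on TMM-scaled CPM, which alternatives of the test alone leave as they are. Other size factors or no scaling could change it for genes with a narrow gap, such as psmd7. It was not repeated for these alternatives. Depth limits psmb8a, psmb9a, psmb10, psmb11b and psme2, whose few reads allow no comparison.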
